A study of Mus musculus with 9 samples.

Results

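The genes described here form the ATF4 amino acid and unfolded protein response, a list of 45 genes that comprises stress regulators, enzymes of amino acid and one-carbon metabolism, amino acid transporters, aminoacyl-tRNA synthetases and chaperones of the endoplasmic reticulum (ER). The genes were listed by name, with earlier results of these data known, so counts over the list are a description only. A gene was taken as measured where the array annotation gave a probe set that symbol (or its synonym) alone, and the probe set with the highest mean over all arrays stood for the gene. In this way 43 of the 45 genes were measured, among 19938 genes in all. Aars lay on a probe set shared with Exosc6 and Pycr1 had no probe set of its own symbol, so neither was analysed here. Expression was measured on 9 Affymetrix mouse gene arrays in CD4-enriched T cells from the spleen of C57BL/6J mice. All cells, in every group, were cultured for 72 h with beads that carried anti-CD3 and anti-CD28 antibodies, a stimulus for the T cell receptor together with CD28. The C-type lectin CD69 is displayed by lymphocytes soon after such a stimulus. The 3 wild-type arrays came from cells without further treatment, and the 3 CD69-/- arrays came from cells of CD69-deficient mice cultured in the same way. The 3 CD69-activated arrays came from wild-type cells given anti-CD69 antibody after 24 h and, after 48 h, an antibody that cross-links it, each diluted 1 in 200. The labels describe no culture with a control antibody, so an effect of the antibodies and an effect of CD69 ligation cannot be told apart. Age and sex of the mice are not labelled, and the labels do not say whether biological replicates came from separate mice, so every p-value here rests on the spread among these samples, which may be technical.

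ATF4 is the transcription factor at the end of the integrated stress response. Kinases that sense a lack of amino acids (GCN2, encoded by Eif2ak4), unfolded protein in the ER (PERK, Eif2ak3), double-stranded RNA (PKR, Eif2ak2) or a lack of haem (HRI, Eif2ak1) phosphorylate the translation initiation factor eIF2alpha. Most translation then slows, while the Atf4 message is translated more through its upstream open reading frames, so that ATF4 activity is set largely at translation and Atf4 RNA reports only a part of it. ATF4, often paired with a C/EBP protein, drives genes that import amino acids, make serine, glycine, proline, cysteine and asparagine, and charge tRNAs. The unfolded protein response has further branches through IRE1 with XBP1 and through ATF6, which drive ER chaperones. Activated T cells need large amounts of amino acids for growth and division, and amino acid transporters and serine enzymes are also driven there by MYC and mTORC1.

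Promoters were searched for the letters that these factors are known to bind. Sequences were taken from RefSeq (build GRCm38.p6), as the 250 bases before and the 50 bases after each gene's annotated start, and 39 of the 45 listed genes had an entry. The C/EBP-ATF response element (CARE) was searched as TGATGNAA on both strands (TTNCATCA on the other strand). It was found for 13 of the 39 genes (33.3%), where a gene counted if any of its entries matched. Of all 32851 promoter entries, counted singly, 1304 held it (3.97%). The list was drawn up as genes of the ATF4 response, so a higher share can come from that choice and is no test of the list. The Asns promoter is shown whole, because Asns was among the genes that differed most, with the match in capitals 23 bases before the start at chr6:7693160-7693459 on the minus strand.
Asns: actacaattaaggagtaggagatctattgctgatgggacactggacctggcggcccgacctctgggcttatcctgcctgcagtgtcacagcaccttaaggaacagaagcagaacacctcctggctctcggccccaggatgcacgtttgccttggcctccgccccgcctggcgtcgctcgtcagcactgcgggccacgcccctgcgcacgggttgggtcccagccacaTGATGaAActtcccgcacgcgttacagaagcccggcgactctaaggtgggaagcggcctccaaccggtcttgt

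The other genes with a CARE match were Atf3, Chac1, Trib3, Pycr1, Slc1a4, Slc7a11, Aars, Gars, Iars, Tars, Yars and Herpud1. The windows below hold the match in capitals with 20 bases on each side, 5′ to 3′ on the strand of the gene, for genes whose values are given in every array further on. Slc7a11 is shown because its promoter held a pair of matches in opposite orientation (chr3:50443633-50443699, minus strand) and because its values departed from those of the other transporters. Yars, a synthetase, is at chr4:129189886-129189933 on the plus strand, and its match lay 3 bases after the start. The remaining windows are those of Trib3 (chr2:152344019-152344066, minus), Chac1 (chr2:119351029-119351076, plus), Atf3 (chr1:191183416-191183463, minus), Slc1a4 (chr11:20332690-20332737, minus), Tars (chr15:11399646-11399693, minus) and Iars (chr13:49682117-49682164, plus), each with the letters of the other strand.
Slc7a11: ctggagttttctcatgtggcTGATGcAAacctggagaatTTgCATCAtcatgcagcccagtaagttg
Yars: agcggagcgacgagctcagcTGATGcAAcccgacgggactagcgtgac
Trib3: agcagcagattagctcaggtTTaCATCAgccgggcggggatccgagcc
Chac1: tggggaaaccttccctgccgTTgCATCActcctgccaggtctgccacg
Atf3: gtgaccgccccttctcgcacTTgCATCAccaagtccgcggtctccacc
Slc1a4: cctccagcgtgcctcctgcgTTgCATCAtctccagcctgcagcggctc
Tars: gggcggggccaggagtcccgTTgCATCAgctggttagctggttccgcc
Iars: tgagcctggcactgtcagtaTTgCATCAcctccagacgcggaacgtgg

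The ER stress response element (ERSE), bound by ATF6 and XBP1 together with NF-Y, was searched on both strands as CCAAT and CCACG with 9 bases between them. It was found in the promoters of Hspa5, Hsp90b1 and Creld2, 3 of the 39 genes of the list with an entry (7.69%). Of all 32851 promoter entries 39 held it (0.119%). These 3 genes are among the 7 ER genes of the list, which were listed as genes of the unfolded protein response, so this share too is no test. No gene of the list held both motifs. The 3 windows below, again with 20 bases on each side, are shown because these genes stand for the ER arm of the response in the results below. They lie at chr2:34772005-34772063 (plus strand, Hspa5), chr10:86705618-86705676 (minus strand, the first of 2 matches in Hsp90b1) and chr15:88819500-88819558 (plus strand, Creld2, with the match on the opposite strand). A match of letters is a description of the window and not evidence that a factor was bound in these cells.
Hspa5: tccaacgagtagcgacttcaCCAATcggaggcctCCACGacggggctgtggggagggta
Hsp90b1: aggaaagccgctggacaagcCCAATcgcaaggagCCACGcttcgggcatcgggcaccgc
Creld2: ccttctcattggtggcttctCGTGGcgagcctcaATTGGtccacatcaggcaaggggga

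The arrays behaved alike within groups, with Pearson correlations, over all probe sets with 1 gene symbol, of 0.9984 to 0.9993 within a group and 0.991 to 0.9967 between groups. Cd69 read 9.49 to 9.65 in the CD69-/- arrays, 12.03 to 12.37 in the wild-type arrays and 11.74 to 11.84 in the CD69-activated arrays, on the log2 scale used throughout. Whether the Cd69 probes lie inside the deleted part of the gene is not known here, so the signal left in the CD69-/- arrays cannot be read as a level of intact Cd69 RNA. Xist and the Y-linked genes showed a male pattern in the 3 CD69-/- arrays and a female pattern in the other 6, so sex and genotype cannot be told apart in comparisons with CD69-/- cells. Markers of T cells were present in every array, and so were markers of other spleen cells. The 9 T cell markers, listed for CD4 T cells, were Cd4, Cd3d, Cd3e, Cd3g, Cd5, Cd2, Thy1, Lat and Cd28. All but Cd4 are also expressed by CD8 T cells, so they do not measure CD4 T cells alone. Their lowest level was 10.74 in the wild-type arrays, where Cd4 itself read 11.92 to 12.02. In the same arrays the B cell gene Pax5 read 12.29 to 12.37. The CD8 genes Cd8a and Cd8b1 read 11.21 to 11.30 and 12.37 to 12.42 there. In such bulk samples, fewer cells of a type and less RNA per cell cannot be told apart. Where each array was centred on its median over all probe sets, a scaling tried after the data were seen, the median of all genes moved from 0.04 to -0.09 in CD69-activated minus CD69-/- cells. The split of all called genes into higher and lower then moved from 1667 and 1351 to 2462 and 886 in CD69-/- minus wild type (2445 and 1104 with centring on probe sets that name a gene), from 2015 and 2727 to 764 and 4741 in CD69-activated minus wild type, and from 4314 and 4187 to 1354 and 7990 between the CD69-activated and CD69-/- cells.

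The first comparison set wild-type cells given the anti-CD69 and cross-linking antibodies against wild-type cells without them, with no control antibody described. After CD69 activation 31 of the 43 genes fell, led by the cysteine enzyme Cth (2.46-fold lower), the asparagine enzyme Asns (2.28-fold lower), the serine enzymes Psat1 and Shmt2 (1.65-fold and 1.63-fold lower) and the ER factor Sdf2l1 (1.59-fold lower). Ddit3 and Ddit4 rose, by 1.15-fold and 1.18-fold, although neither passed the test when arrays were centred on all probe sets (adjusted p = 0.0931 and 0.0715). The remaining 10 genes did not pass the test, which was limma's moderated test with Benjamini-Hochberg adjustment over all 19938 genes and a threshold of 0.05. Over all genes 13.7% were called lower and 10.1% higher, and among the 10872 genes at least as bright as the dimmest gene of the list 23.3% were called lower and 12.9% higher. The median change of the 43 genes was -0.29 on the log2 scale, against 0.02 over all genes. The amount of change was modest for most genes, and 5 of the 43 changed by at least 1.5-fold. The share of all genes that changed by that much was not computed, so this count has no background beside it. Genes of cell division fell in the same arrays, 9 of 9 measured with a median of -1.18, and their summed level on the linear scale was 8635 to 8915 after CD69 activation against 14507 to 15180 in wild-type cells. T cell markers had summed levels of 36136 to 36793 after CD69 activation and 36173 to 38218 in wild-type cells, with 2 of 9 lower. Markers of CD8 T cells were lower in 2 of 2 (median -0.39, summed level 5785 to 6626 against 7805 to 7934). Those of NK cells were lower in 4 of 6 (median -0.54, summed level 2326 to 2548 against 3205 to 3316). These were Ncr1, Klrb1c, Klrk1 and Eomes, and activated CD8 T cells also express Klrk1 and Eomes. The lowest level of any of the 6 was 4.82 in the CD69-activated arrays. The part of cell division or of the mix of cells in the fall of the response genes was not tested.

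**Figure D1:**
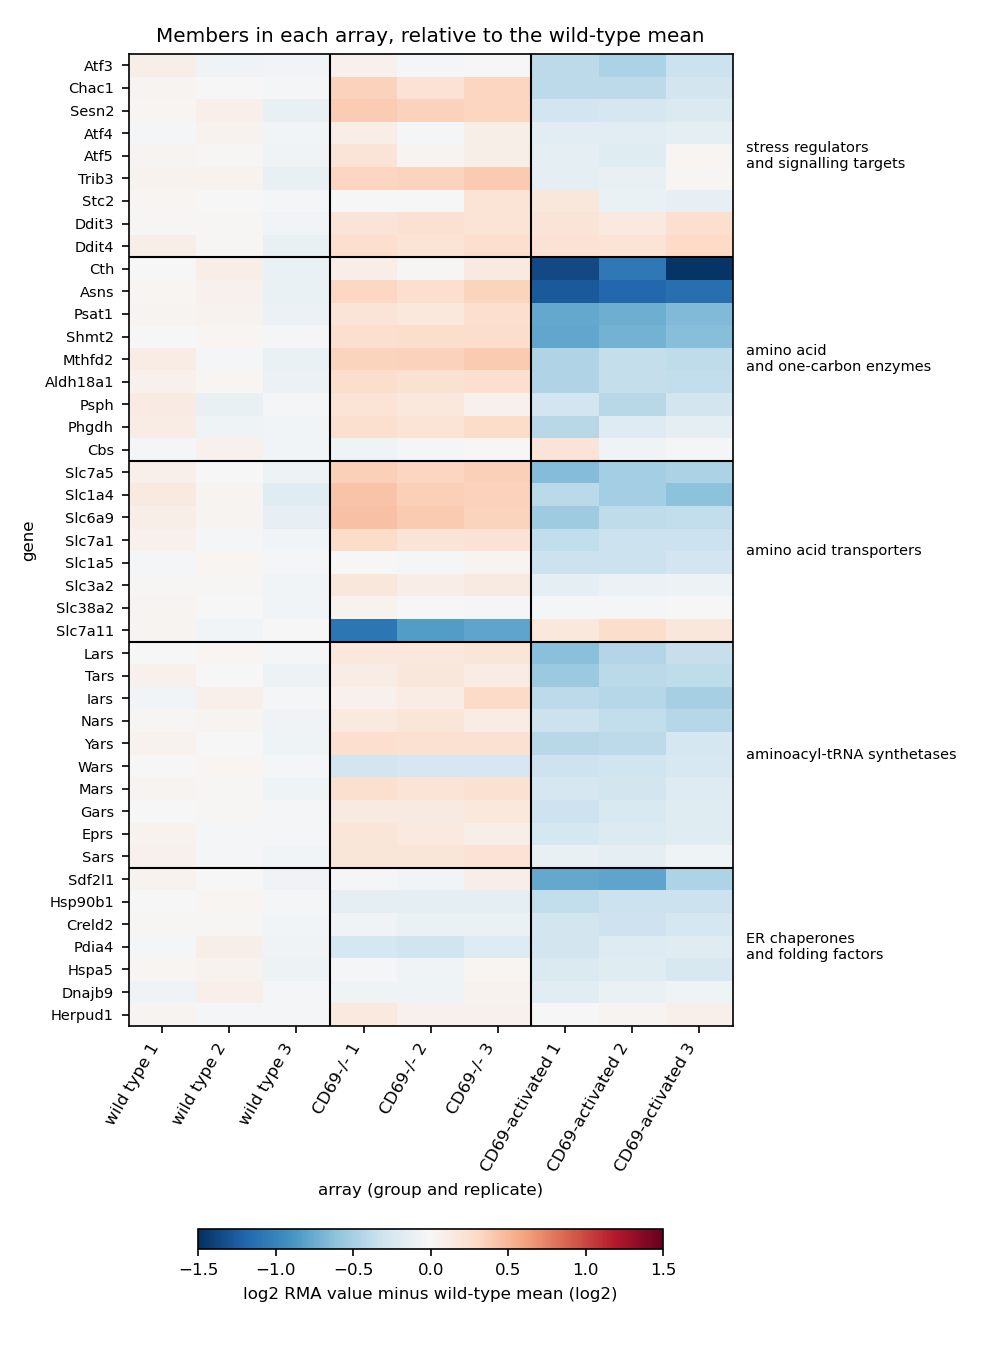
Log2 RMA value of each of the 43 measured genes (rows, grouped by role) in each of the 9 arrays (columns), minus the mean of the 3 wild-type arrays; blue is lower and red is higher, on a scale from -1.5 to 1.5. The CD69-activated arrays are mostly blue, deepest for Cth and Asns, and the CD69-/- arrays are mostly pale red apart from Slc7a11, Wars and Pdia4.

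The comparison of CD69-/- with wild-type cells asked how the same genes differed between these groups, whose sex patterns differed as well. In CD69-/- cells 22 of the 43 genes rose, where 8.36% of all genes were called higher. The rises were small, the highest being that of the glycine transporter Slc6a9 (1.31-fold), followed by Slc1a4, Mthfd2, Trib3 and Sesn2 (1.30-fold to 1.27-fold). Only 4 genes fell, where 6.78% of all genes were called lower, and these were the cystine transporter Slc7a11 (1.87-fold), the tryptophanyl-tRNA synthetase Wars (1.20-fold) and the ER proteins Pdia4 (1.19-fold) and Hsp90b1 (1.11-fold). The median change was 0.14 on the log2 scale against -0.01 over all genes. Among genes at least as bright as the dimmest gene of the list, 14.3% were called higher and 9.23% lower. Without wild-type replicate 3 the number of rises was 16, the lowest count with an array left out. T cell markers stood higher in the same arrays, 9 of 9 with a median of 0.37. Their summed level was 49523 to 50350 in CD69-/- and 36173 to 38218 in wild-type arrays. CD8 T cell markers rose in 2 of 2 (median 0.52), with summed levels of 10882 to 11269 against 7805 to 7934. B cell markers fell in 8 of 8 (median -0.48) and markers of monocytes, macrophages and dendritic cells in 7 of 9 (median -0.47). NK cell markers went both ways, with 2 of 6 higher and 3 lower. The part of these cells in the changes was not tested.

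The direct comparison of CD69-activated with CD69-/- cells, which shares its arrays with the other comparisons, found 33 of the 43 genes lower (21% of all genes were called lower) and Slc7a11 higher (21.6% of all genes were called higher). Its median over the 43 genes was -0.43 on the log2 scale against 0.04 over all genes, and among the genes at least as bright as the dimmest of the list 36% were lower and 20.7% higher. In this comparison 15 of the 43 genes were at least 1.5-fold lower, with Asns 2.80-fold and Cth 2.61-fold lower in the CD69-activated cells. Here too the share of all genes at that size was not computed. In the same arrays T cell markers were lower in 9 of 9 (median -0.50) and CD8 T cell markers in 2 of 2 (median -0.92). Cell division genes were lower in 9 of 9 (median -1.18), and B cell markers were higher in 8 of 8 (median 0.46). The part of all these in the changes was not tested. Per array, the median log2 level of the 43 genes was 10.08 to 10.16 in CD69-activated, 10.31 to 10.48 in wild-type and 10.60 to 10.64 in CD69-/- arrays.

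**Figure D2:**
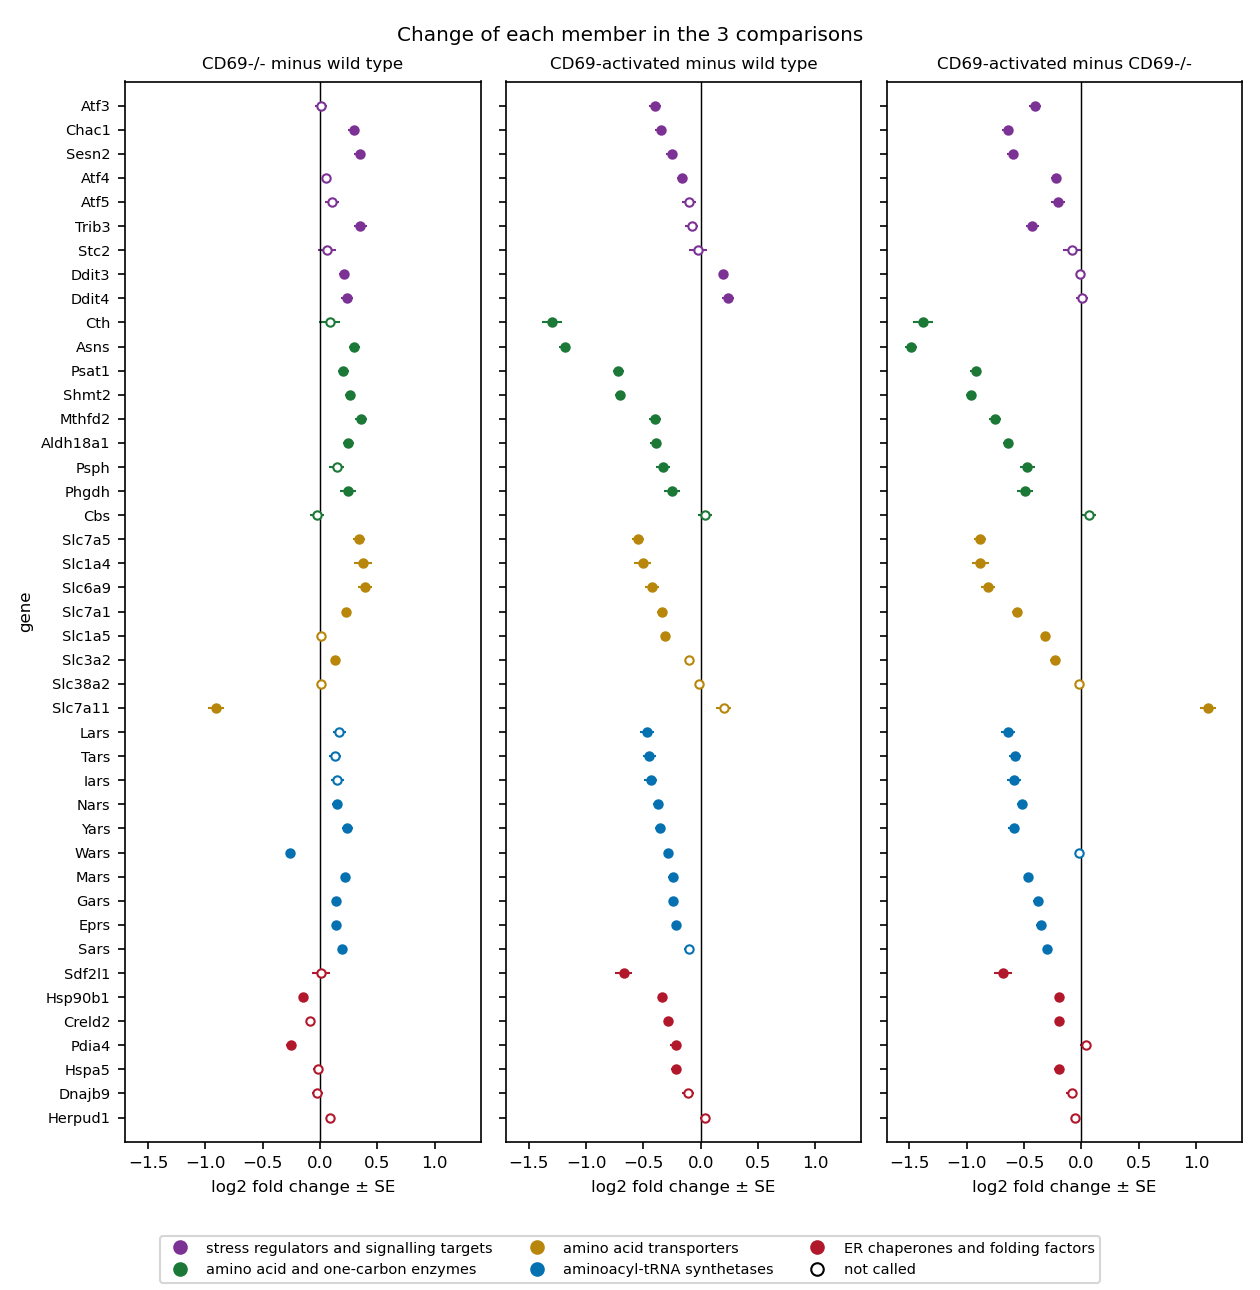
Log2 fold change of each gene with its standard error (horizontal bar) in the 3 comparisons, coloured by role; filled points passed an adjusted p of 0.05 and open points did not. The points lie mostly left of 0 in both comparisons of CD69-activated cells and mostly right of 0 for CD69-/- cells, where Slc7a11 is far to the left at -0.90.

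The regulators and signalling targets of the response comprise Atf4 itself with further stress factors and signalling genes. Of these 9 genes, 5 rose and none fell in CD69-/- cells, and 2 rose and 4 fell after CD69 activation. Atf4 read 9.54, 9.61 and 9.52 in the wild-type arrays, 9.65, 9.55 and 9.64 in the CD69-/- arrays, and 9.39, 9.38 and 9.41 in the CD69-activated arrays. The CD69-activated arrays were the lowest 3 of the 9, and the other groups overlapped. The log2 change after CD69 activation was -0.17 ± 0.04 (SE, adjusted p = 0.0132), and it did not pass without wild-type replicate 2 (adjusted p = 0.0601). In CD69-/- cells the change of Atf4 stayed short of the threshold, at 0.06 ± 0.04 (adjusted p = 0.436).

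Atf3 encodes a stress-induced partner and repressor in the same family of factors. It read 9.48, 9.34 and 9.35 in the wild-type arrays, 9.46, 9.36 and 9.39 in the CD69-/- arrays and 8.996, 8.91 and 9.07 in the CD69-activated arrays. Wild-type and CD69-/- arrays overlapped and every CD69-activated array lay below them. The fall after CD69 activation was -0.40 ± 0.05 (log2, adjusted p = 0.000302), while the change in CD69-/- cells was 0.01 ± 0.05 (adjusted p = 0.933).

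Ddit3 encodes CHOP, the factor that ATF4 induces under lasting stress and that promotes cell death. Its levels were 9.21, 9.21 and 9.14 in the wild-type arrays, 9.38, 9.41 and 9.39 in the CD69-/- arrays and 9.38, 9.34 and 9.44 in the CD69-activated arrays. Both other groups lay above wild type and overlapped each other. The changes were 0.21 ± 0.04 in CD69-/- cells (adjusted p = 0.00364) and 0.20 ± 0.04 after CD69 activation (adjusted p = 0.00356). Ddit4 (REDD1), which restrains mTORC1 signalling, changed by 0.23 ± 0.05 (adjusted p = 0.00921) and 0.24 ± 0.05 (adjusted p = 0.00619) in the same comparisons. For both genes the comparison of CD69-activated with CD69-/- cells did not pass the test (adjusted p = 0.872 for Ddit3 and 0.969 for Ddit4).

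Trib3, a pseudokinase that feeds back on ATF4 and restrains AKT, read 8.81, 8.81 and 8.64 in wild-type arrays. It stood at 9.08, 9.09 and 9.14 in CD69-/- arrays and at 8.62, 8.64 and 8.77 in CD69-activated arrays. The CD69-/- arrays were the highest 3, and the CD69-activated arrays overlapped wild type. Trib3 rose by 0.35 ± 0.06 in CD69-/- cells (log2, adjusted p = 0.00126), and its change after CD69 activation was -0.08 ± 0.06 (adjusted p = 0.358).

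Chac1 degrades glutathione and is a sensitive target of the ATF4 and CHOP axis. It read 9.11, 9.06 and 9.04 in the wild-type arrays, 9.42, 9.29 and 9.39 in the CD69-/- arrays and 8.68, 8.68 and 8.80 in the CD69-activated arrays. The 3 groups did not overlap, with CD69-/- highest. Chac1 rose by 0.29 ± 0.05 in CD69-/- cells (adjusted p = 0.00141), and after CD69 activation its log2 change was -0.35 ± 0.05 (adjusted p = 0.000357). Sesn2, a leucine-responsive inhibitor of mTORC1, read 9.44, 9.48 and 9.30 in the wild-type arrays, 9.78, 9.75 and 9.72 in the CD69-/- arrays and 9.11, 9.15 and 9.19 in the CD69-activated arrays. Again the groups did not overlap and stood in that order. The log2 changes of Sesn2 were 0.35 ± 0.05 in CD69-/- cells (adjusted p = 0.000515) and -0.25 ± 0.05 after CD69 activation (adjusted p = 0.00336). Atf5, a related factor, changed by -0.20 ± 0.06 between CD69-activated and CD69-/- cells (adjusted p = 0.0194), a call that was lost without any one of CD69-/- replicate 1, CD69-activated replicate 1 or CD69-activated replicate 2 (adjusted p = 0.0656 to 0.0809). Its change after CD69 activation, -0.10 ± 0.06, passed only without CD69-activated replicate 3 among the arrays left out (adjusted p = 0.0495). Stc2, a secreted stress glycoprotein, passed no test, with changes from -0.08 to 0.06.

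Enzymes that make amino acids and one-carbon units showed the deepest falls after CD69 activation. Of the 9 measured enzymes, 8 fell after CD69 activation with a median over the 9 of -0.40, and 6 rose in CD69-/- cells with a median of 0.24. Asns makes asparagine from aspartate and glutamine. It read 10.95, 10.99 and 10.83 in the wild-type arrays, 11.24, 11.18 and 11.25 in the CD69-/- arrays and 9.67, 9.75 and 9.79 in the CD69-activated arrays. The groups were widely apart, and the CD69-activated arrays lay over 1 log2 unit below every wild-type array. The log2 changes were -1.19 ± 0.05 after CD69 activation (adjusted p = 1e-07) and 0.30 ± 0.05 in CD69-/- cells (adjusted p = 0.00184).

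Cth, the last enzyme of the route from methionine to cysteine, read 8.52, 8.63 and 8.43 in the wild-type arrays, 8.62, 8.54 and 8.66 in the CD69-/- arrays and 7.17, 7.46 and 7.05 in the CD69-activated arrays. Wild-type and CD69-/- arrays overlapped, and the CD69-activated arrays lay far below. Cth fell by 1.30 ± 0.09 on the log2 scale after CD69 activation (adjusted p = 3.45e-06), while its change in CD69-/- cells was 0.08 ± 0.09 (adjusted p = 0.611). Cbs, which catalyses the step before Cth, passed no test, with changes of 0.04 ± 0.06 after CD69 activation and -0.03 ± 0.06 in CD69-/- cells. Cbs was the dimmest gene of the list, with a mean of 7.42 over all arrays against a median of 7.70 over all genes. With no detection call, it is not known whether its probe set read above background. The CD69-activated values of Cth also lay below that median. The calls of these enzymes therefore cannot be set against each other, and the difference between them was not tested.

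Serine is made from a glycolytic intermediate by Phgdh, Psat1 and Psph in turn. Psat1 read 10.88, 10.89 and 10.75 in the wild-type arrays, 11.04, 11.004 and 11.09 in the CD69-/- arrays and 10.07, 10.11 and 10.19 in the CD69-activated arrays, with no overlap between groups. Its log2 changes were -0.72 ± 0.05 after CD69 activation (adjusted p = 3.05e-06) and 0.20 ± 0.05 in CD69-/- cells (adjusted p = 0.0168). The rise in CD69-/- cells did not pass without wild-type replicate 3 or without CD69-/- replicate 3 (adjusted p = 0.0669 to 0.0703). Phgdh and Psph, the steps before and after, changed less after CD69 activation, by -0.25 ± 0.07 (adjusted p = 0.0263) and -0.33 ± 0.06 (adjusted p = 0.0035). The symbol of Phgdh also stands on a probe set shared with Gm6756, which was not used here. Its fall after CD69 activation was lost without wild-type replicate 1 or CD69-activated replicate 1 (adjusted p = 0.0688 to 0.105), and its rise in CD69-/- cells, 0.24 ± 0.07 (adjusted p = 0.0433), was lost without any one of wild-type replicates 2 and 3, the 3 CD69-/- arrays and CD69-activated replicate 2 (adjusted p = 0.0538 to 0.152). Psph did not pass in CD69-/- cells (0.14 ± 0.06, adjusted p = 0.174), though it did without wild-type replicate 1 (adjusted p = 0.0492).

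Shmt2 and Mthfd2 are mitochondrial enzymes that pass a carbon unit from serine to folate and on to purine and thymidine synthesis. Shmt2 read 11.38, 11.40 and 11.35 in the wild-type arrays, 11.63, 11.64 and 11.64 in the CD69-/- arrays and 10.59, 10.67 and 10.74 in the CD69-activated arrays. Mthfd2 read 11.03, 10.91 and 10.83, then 11.26, 11.27 and 11.32, and then 10.47, 10.56 and 10.54 in the same order of groups. Neither gene had overlapping groups, and both stood highest in CD69-/- cells. After CD69 activation Shmt2 changed by -0.71 ± 0.04 (log2, adjusted p = 1.11e-06) and Mthfd2 by -0.40 ± 0.05 (adjusted p = 0.000268). Against wild type, CD69-/- cells had Shmt2 higher by 0.26 ± 0.04 (adjusted p = 0.00133) and Mthfd2 higher by 0.36 ± 0.05 (adjusted p = 0.000667). Aldh18a1, which begins proline synthesis from glutamate, read 11.43, 11.40 and 11.28 in the wild-type arrays, 11.63, 11.60 and 11.62 in the CD69-/- arrays and 10.92, 11.01 and 10.998 in the CD69-activated arrays. Its groups did not overlap either, and its log2 changes were -0.39 ± 0.05 after CD69 activation (adjusted p = 0.000122) and 0.25 ± 0.05 in CD69-/- cells (adjusted p = 0.00329).

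**Figure D3:**
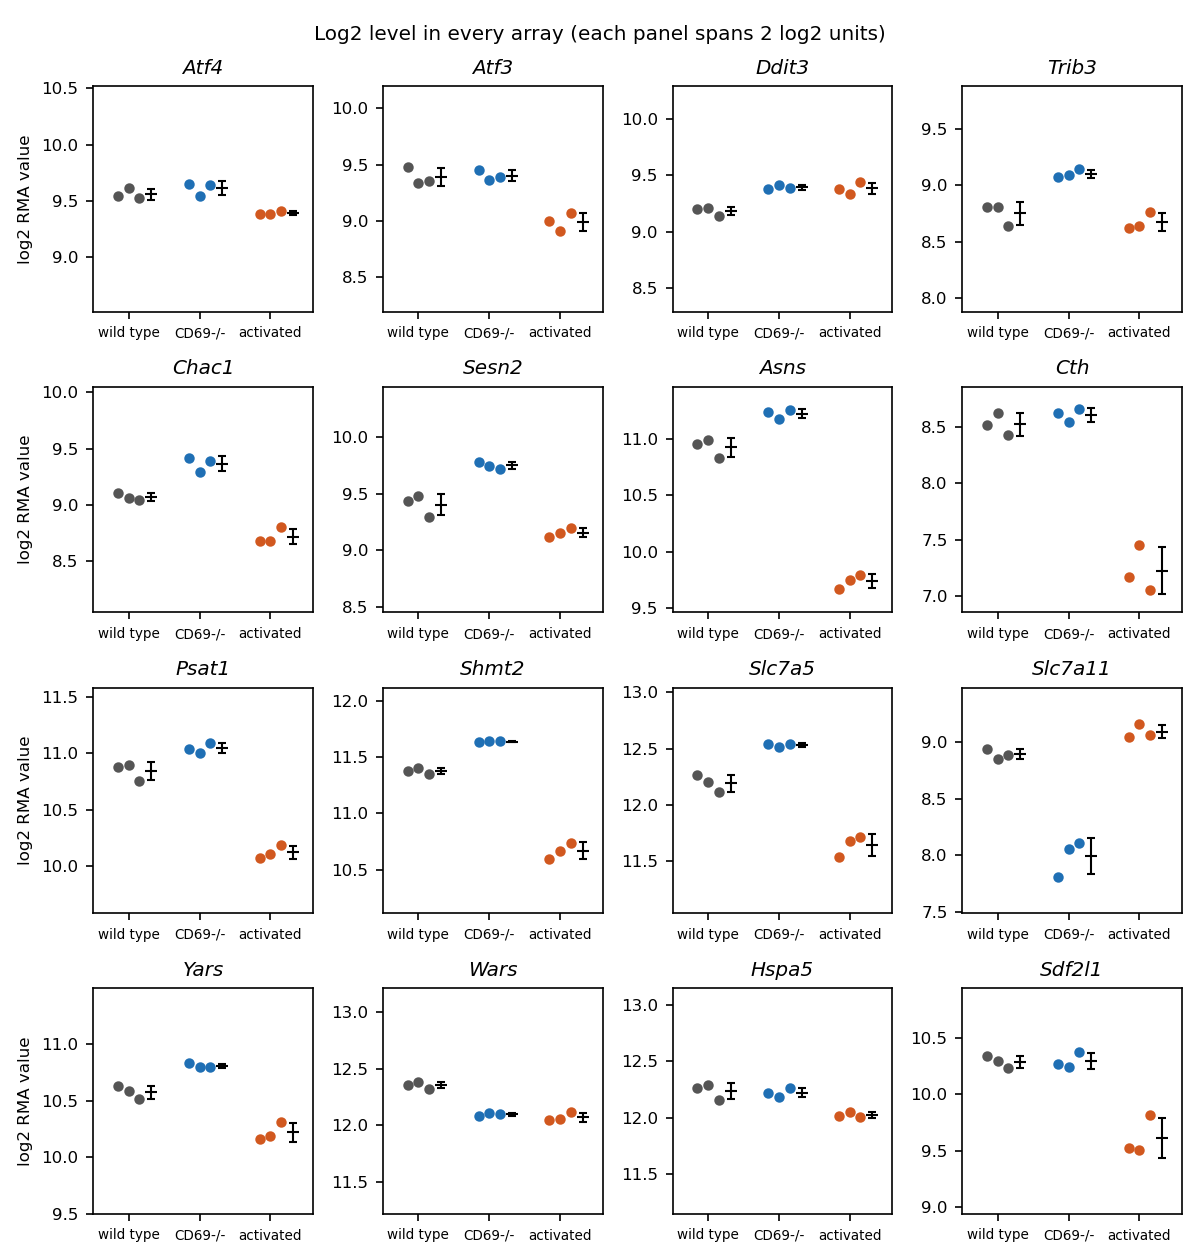
Log2 RMA level of 16 of the genes in every array (points) with the group mean and SD (bar, n = 3) beside them; every panel spans 2 log2 units around its own middle, so sizes of difference can be compared between panels while levels cannot. Asns and Cth have the widest gaps between CD69-activated and wild-type arrays, and Slc7a11 is the panel in which the CD69-/- arrays are the lowest by a wide margin, at 7.81 to 8.11.

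Most amino acid transporters fell after CD69 activation, and most rose in CD69-/- cells, with Slc7a11 apart from the others. Of the 8 transporters, 5 fell and none rose after CD69 activation (median -0.32), and 5 rose and 1 fell in CD69-/- cells (median 0.18). Slc7a5 is the light chain of LAT1, the main carrier of leucine and other large neutral amino acids in activated T cells. It read 12.26, 12.20 and 12.11 in the wild-type arrays, 12.54, 12.51 and 12.54 in the CD69-/- arrays and 11.54, 11.68 and 11.72 in the CD69-activated arrays. The groups did not overlap and CD69-/- was highest. The log2 changes of Slc7a5 were -0.55 ± 0.05 after CD69 activation (adjusted p = 4.32e-05) and 0.34 ± 0.05 in CD69-/- cells (adjusted p = 0.00115). Slc3a2 (CD98), the heavy chain shared by LAT1 and the cystine carrier, rose by 0.13 ± 0.04 in CD69-/- cells (adjusted p = 0.0318). That call was lost without any one of 5 of the 6 arrays compared (adjusted p = 0.0587 to 0.117), the exception being CD69-/- replicate 2, and its change after CD69 activation was -0.10 ± 0.04 (adjusted p = 0.0725).

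Slc7a1, the carrier of arginine and lysine, read 10.55, 10.46 and 10.45 in the wild-type arrays, 10.76, 10.68 and 10.70 in the CD69-/- arrays and 10.12, 10.17 and 10.16 in the CD69-activated arrays. Slc1a4 carries alanine, serine and cysteine, and it read 8.77, 8.68 and 8.45, then 9.06, 8.99 and 8.98, and then 8.23, 8.13 and 8.02 in the same order. Slc6a9, the glycine transporter, read 10.20, 10.16 and 9.99, then 10.56, 10.51 and 10.45, and then 9.58, 9.74 and 9.75. In all 3 genes the groups were separate and ordered CD69-activated, wild type, CD69-/- from low to high. After CD69 activation the log2 changes were -0.34 ± 0.04 for Slc7a1 (adjusted p = 0.000162), -0.51 ± 0.08 for Slc1a4 (adjusted p = 0.00067) and -0.43 ± 0.06 for Slc6a9 (adjusted p = 0.000573). The CD69-/- changes, in the same order, were 0.23 ± 0.04 (adjusted p = 0.00263), 0.38 ± 0.08 (adjusted p = 0.00592) and 0.39 ± 0.06 (adjusted p = 0.00131). The glutamine carrier Slc1a5 fell after CD69 activation (-0.31 ± 0.04, adjusted p = 0.000106) and did not pass in CD69-/- cells (0.01 ± 0.04, adjusted p = 0.934). Slc38a2, a carrier of small neutral amino acids and a classic amino acid response gene, passed neither test, at -0.01 ± 0.04 and 0.01 ± 0.04.

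Slc7a11 is the light chain of the cystine and glutamate exchanger and supplies cysteine for glutathione. It read 8.94, 8.86 and 8.89 in wild-type arrays, 7.81, 8.05 and 8.11 in CD69-/- arrays and 9.05, 9.16 and 9.07 in CD69-activated arrays. The CD69-/- arrays lay below all others, and the CD69-activated arrays lay above the wild-type arrays without overlap. Slc7a11 fell by 0.90 ± 0.07 on the log2 scale in CD69-/- cells (adjusted p = 7.29e-06) and was 1.10 ± 0.07 higher in CD69-activated than in CD69-/- cells (adjusted p = 5.14e-07). Against wild type its change after CD69 activation, 0.20 ± 0.07, did not pass (adjusted p = 0.0586). It did pass under 6 of the 18 alternatives to this fit (adjusted p = 0.00982 to 0.0491). Among these were leaving out CD69-/- replicate 1 or 3, which enter only the estimate of spread, and using only the arrays compared. Markers of monocytes, macrophages and dendritic cells, cells that also express Slc7a11 under stress, had summed levels of 3893 to 4093 in CD69-/-, 6090 to 6136 in wild-type and 6610 to 6879 in CD69-activated arrays. The macrophage marker Adgre1 changed by -1.86 ± 0.04 in CD69-/- cells and 0.85 ± 0.04 after CD69 activation, and both were the largest changes among the 9 markers. After CD69 activation the 9 markers did not move together, since 4 rose, 3 did not pass, and Itgax (-0.35, adjusted p = 0.000497) and Mpeg1 (-0.16, adjusted p = 0.00708) fell. The lowest level of any of these 9 markers was 6.31 in the CD69-/- arrays, and the part of such cells in the change of Slc7a11 was not tested.

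Aminoacyl-tRNA synthetases load amino acids onto tRNAs, and their cytosolic members are long known targets of ATF4. All 10 measured synthetases had lower means after CD69 activation and 9 of them fell, with a narrow range of log2 changes from -0.47 to -0.11 and a median of -0.32. In CD69-/- cells 6 rose and 1 fell, with a median of 0.15. Lars, for leucine, read 10.33, 10.37 and 10.31 in the wild-type arrays, 10.50, 10.50 and 10.53 in the CD69-/- arrays and 9.72, 9.90 and 9.99 in the CD69-activated arrays. Tars, for threonine, read 9.55, 9.50 and 9.42, then 9.60, 9.66 and 9.60, and then 8.93, 9.09 and 9.11 in the same order. For both genes the groups did not overlap, with CD69-/- only slightly above wild type. Their log2 changes after CD69 activation were -0.47 ± 0.06 for Lars (adjusted p = 0.00021) and -0.45 ± 0.05 for Tars (adjusted p = 0.000152). In CD69-/- cells neither passed, at 0.17 ± 0.06 for Lars (adjusted p = 0.0839) and 0.13 ± 0.05 for Tars (adjusted p = 0.142). Lars did pass there under 5 of the 18 alternatives (adjusted p = 0.00836 to 0.0402). These included leaving out CD69-activated replicate 1 or 3, which enter only the estimate of spread.

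Iars, for isoleucine, read 11.79, 11.90 and 11.80 in the wild-type arrays, 11.89, 11.94 and 12.11 in the CD69-/- arrays and 11.44, 11.40 and 11.33 in the CD69-activated arrays. Wild-type and CD69-/- arrays overlapped, and the CD69-activated arrays were the lowest 3. Its fall after CD69 activation was -0.44 ± 0.06 (adjusted p = 0.000326), and the second probe set of the gene gave a smaller one of -0.14 ± 0.04 (adjusted p = 0.0309 over all probe sets with 1 symbol). Nars, for asparagine, read 11.45, 11.48 and 11.39 in the wild-type arrays, 11.58, 11.62 and 11.56 in the CD69-/- arrays and 11.12, 11.08 and 11.01 in the CD69-activated arrays. Yars, for tyrosine, read 10.63, 10.58 and 10.51, then 10.83, 10.80 and 10.80, and then 10.16, 10.18 and 10.31. Both had separate groups in the order CD69-activated, wild type, CD69-/-. After CD69 activation Nars changed by -0.37 ± 0.04 (adjusted p = 0.000105) and Yars by -0.36 ± 0.05 (adjusted p = 0.000308). Yars rose in CD69-/- cells by 0.24 ± 0.05 (adjusted p = 0.00559) and Nars by 0.15 ± 0.04 (adjusted p = 0.036).

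The remaining synthetases changed less. Mars, Gars and Eprs, for methionine, glycine, and glutamate with proline, fell by 0.24, 0.24 and 0.21 on the log2 scale after CD69 activation, and Sars, for serine, did not pass (-0.11 ± 0.04, adjusted p = 0.0796). In CD69-/- cells Mars, Sars, Gars and Eprs rose by 0.22, 0.19, 0.14 and 0.14. The small rises of Gars, Nars and Eprs lay near the threshold. Gars lost its call without any one of the 6 arrays compared (adjusted p = 0.0704 to 0.12), Nars without any of these but wild-type replicate 2 (adjusted p = 0.0567 to 0.138), and Eprs without wild-type replicate 2 or 3 or CD69-/- replicate 1 or 2 (adjusted p = 0.106 to 0.138). Over all alternatives that ended these calls the log2 changes were 0.13 to 0.15 for Gars, 0.12 to 0.16 for Nars and 0.10 to 0.14 for Eprs, close to the values with all arrays. Wars, for tryptophan, departed from the other synthetases. It is also a gene induced by interferon gamma. Wars read 12.36, 12.38 and 12.32 in the wild-type arrays, 12.08, 12.11 and 12.10 in the CD69-/- arrays and 12.04, 12.05 and 12.12 in the CD69-activated arrays. Wild type was the highest group, and the other groups overlapped. The changes of Wars were -0.26 ± 0.04 in CD69-/- cells (adjusted p = 0.000455) and -0.29 ± 0.04 after CD69 activation (adjusted p = 0.000212).

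The ER chaperones and folding factors are genes that XBP1 and ATF6 drive. Their median changes were nearer to 0 than those of the enzymes, transporters and synthetases in both comparisons with wild type, a difference that was not tested. Of the 7 genes, 5 fell after CD69 activation (median -0.22), and in CD69-/- cells 2 fell and none rose (median -0.02). The regulators and signalling targets were nearer to 0 than the ER genes after CD69 activation (median -0.10). In CD69-/- cells they were farther from it (median 0.21). Hspa5 (BiP), the main Hsp70 of the ER and the usual reporter of the unfolded protein response, read 12.26, 12.29 and 12.16 in the wild-type arrays, 12.22, 12.18 and 12.26 in the CD69-/- arrays and 12.02, 12.05 and 12.004 in the CD69-activated arrays. Wild-type and CD69-/- arrays overlapped, and all CD69-activated arrays were below them. Its changes were -0.21 ± 0.04 after CD69 activation (adjusted p = 0.00417) and -0.02 ± 0.04 in CD69-/- cells (adjusted p = 0.868). Sdf2l1, a BiP co-factor, had the deepest fall of the group. It read 10.34, 10.29 and 10.23 in the wild-type arrays, 10.27, 10.25 and 10.38 in the CD69-/- arrays and 9.52, 9.50 and 9.82 in the CD69-activated arrays. Again the CD69-activated arrays were the lowest 3, and the other groups overlapped. The fall of Sdf2l1 was -0.67 ± 0.08 (log2, adjusted p = 0.000108), and its change in CD69-/- cells was 0.01 ± 0.08 (adjusted p = 0.962).

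Hsp90b1 (GRP94), the Hsp90 of the ER, fell after CD69 activation (-0.34 ± 0.03, adjusted p = 4.12e-05) and in CD69-/- cells (-0.14 ± 0.03, adjusted p = 0.0127). The fall in CD69-/- cells did not pass without wild-type replicate 2 (adjusted p = 0.0532) or with arrays centred on all probe sets (adjusted p = 0.133). Creld2, an ER protein induced by stress, fell after CD69 activation (-0.28 ± 0.04, adjusted p = 0.000201). Pdia4, a protein disulphide isomerase, changed by -0.25 ± 0.05 in CD69-/- cells (adjusted p = 0.00376) and -0.22 ± 0.05 after CD69 activation (adjusted p = 0.00697). The second, dimmer probe set of Pdia4 gave 0.12 after CD69 activation (adjusted p = 0.246), so the direction there depends on the probe set. Dnajb9 and Herpud1, which act in ER-associated degradation, passed no test, with changes from -0.11 to 0.09. Markers of plasma cells, which are rich in ER chaperones, had summed levels of 6137 to 6367 in wild-type, 5730 to 6074 in CD69-/- and 4961 to 5271 in CD69-activated arrays. In each comparison with wild type 4 of the 7 were lower, but not the same 4. After CD69 activation these were Irf4 (-0.44), Prdm1 (-0.16), Jchain and Pou2af1, while Sdc1, Tnfrsf17 and Fkbp11 did not pass. In CD69-/- cells they were Sdc1, Jchain, Pou2af1 and Fkbp11. In CD69-/- cells 2 others, Irf4 (0.50, adjusted p = 4.26e-06) and Prdm1 (0.26, adjusted p = 0.00564), which activated T cells also express, rose. The lowest level of any of these 7 markers was 6.23 in the wild-type arrays, and the part of plasma cells in the ER genes was not tested.

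Genes with and without a CARE match were set side by side as a description. Of the 11 measured genes with a match, 8 fell and none rose after CD69 activation, with a median of -0.36 and a range from -1.19 to 0.20. The 26 measured genes whose promoter entry had no match gave 17 falls and 2 rises, with a median of -0.23 and a range from -0.72 to 0.24. In CD69-/- cells 6 of the 11 rose and 1 fell (median 0.15), and 14 of the 26 rose and 2 fell (median 0.14). The 6 measured genes without a promoter entry (Cth, Lars, Nars, Slc1a5, Slc7a5 and Wars) all fell after CD69 activation, with a median of -0.42. In CD69-/- cells 2 of these rose and 1 fell (median 0.12). Each kind of gene thus had falls after CD69 activation and rises in CD69-/- cells, and differences between the kinds were not tested.

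Upstream of ATF4, the 4 eIF2alpha kinases did not change in one direction after CD69 activation. Eif2ak4 (GCN2) rose by 0.15 ± 0.04 after CD69 activation (log2, adjusted p = 0.0186) and was at -0.13 ± 0.04 in CD69-/- cells (adjusted p = 0.0514). Eif2ak2 (PKR) fell after CD69 activation (-0.35 ± 0.08, adjusted p = 0.00817), while Eif2ak3 (PERK) at 0.11 ± 0.04 and Eif2ak1 (HRI) at -0.13 ± 0.04 did not pass (adjusted p = 0.113 and 0.0651). These 3 kinases did not pass in CD69-/- cells either, with changes from -0.11 to -0.03. All 4 kinases had means below wild type there, but none was called, so no direction is read from them. Between CD69-activated and CD69-/- cells Eif2ak3 (0.22 ± 0.04, adjusted p = 0.00235) and Eif2ak4 (0.28 ± 0.04, adjusted p = 0.000214) were higher. Eif2ak2 was lower (-0.32 ± 0.08, adjusted p = 0.00752) and Eif2ak1 did not pass (adjusted p = 0.132). In that comparison 20.7% of genes as bright as the response genes were called higher and 36% lower. Ppp1r15a (GADD34), the phosphatase subunit that ends the response, changed by 0.06 ± 0.04 after CD69 activation and 0.10 ± 0.04 in CD69-/- cells (adjusted p = 0.374 and 0.15). Cebpb, a partner of ATF4, passed neither test (-0.09 ± 0.05 and 0.05 ± 0.05). Over the list of kinases, phosphatases and partners, 15 of 16 genes were measured, of which 3 rose and 4 fell after CD69 activation and 4 rose and 1 fell in CD69-/- cells. Among genes at least as bright as the dimmest response gene, 12.9% rose and 23.3% fell after CD69 activation and 14.3% rose and 9.23% fell in CD69-/- cells, which are the shares beside which this count and those of the lists below stand.

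Myc, a growth factor-induced regulator that shares transporter and serine enzyme targets with ATF4, belonged to that list and had its largest change after CD69 activation. It read 11.64, 11.63 and 11.56 in the wild-type arrays, 11.85, 11.84 and 11.86 in the CD69-/- arrays and 10.83, 10.79 and 10.81 in the CD69-activated arrays. The groups were far apart, with CD69-activated cells lowest and CD69-/- cells highest. The log2 changes of Myc were -0.81 ± 0.03 after CD69 activation (adjusted p = 1.14e-07) and 0.24 ± 0.03 in CD69-/- cells (adjusted p = 0.000711). Its part in the changes of the ATF4 genes was not tested.

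In the XBP1 and ATF6 branches, 26 of 27 further genes were measured, of which 13 fell and 1 rose after CD69 activation (median -0.14) and 3 fell and 1 rose in CD69-/- cells (median 0.00). Xbp1 fell after CD69 activation (-0.22 ± 0.04, adjusted p = 0.0017) and was near 0 in CD69-/- cells (adjusted p = 0.987). Ern1, which encodes IRE1alpha, was at 0.14 ± 0.05 and -0.13 ± 0.05 (adjusted p = 0.067 and 0.112), and Atf6 was at -0.01 ± 0.04 and 0.01 ± 0.04. No gene of these branches changed by as much as 0.5 on the log2 scale in any comparison.

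Other cytosolic synthetases and their scaffold partners, outside the 45 genes, gave 9 falls and no rise among 11 measured of 12 after CD69 activation (median -0.22), and 4 rises and no fall in CD69-/- cells. Within them Eef1e1, a scaffold protein of the multisynthetase complex, fell by 0.55 ± 0.06 on the log2 scale (adjusted p = 5.64e-05). Hars, for histidine, and Aimp2, another scaffold protein, differed by -0.54 ± 0.05 and -0.70 ± 0.06 between CD69-activated and CD69-/- cells. Among further genes of one-carbon metabolism, 10 of 12 were measured, of which 7 fell and 1 rose after CD69 activation and 3 rose in CD69-/- cells. Tyms, the thymidylate synthase that uses the carbon unit for DNA synthesis, fell by 0.84 ± 0.08 after CD69 activation (adjusted p = 4.4e-05), and Mthfd1, the cytosolic folate enzyme, by 0.53 ± 0.04 (adjusted p = 9.31e-06). Shmt1 and Gcsh differed by -0.58 ± 0.08 and -0.67 ± 0.09 between CD69-activated and CD69-/- cells.

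Further amino acid enzymes gave 5 falls and 1 rise among 10 measured of 12 after CD69 activation, and 3 rises and 1 fall in CD69-/- cells. Bcat1, the cytosolic branched-chain transaminase, had a change in the range of Asns. It read 9.79, 9.73 and 9.66 in the wild-type arrays, 9.95, 9.96 and 9.99 in the CD69-/- arrays and 8.52, 8.62 and 8.72 in the CD69-activated arrays, with no overlap. The log2 changes of Bcat1 were -1.11 ± 0.05 after CD69 activation (adjusted p = 2e-07) and 0.24 ± 0.05 in CD69-/- cells (adjusted p = 0.00947). Prodh, which degrades proline and so opposes Aldh18a1, changed by -0.32 ± 0.05 in CD69-/- cells (adjusted p = 0.000539) and 0.24 ± 0.05 after CD69 activation (adjusted p = 0.00293). All 14 further amino acid transporters were measured, and they had no common direction, with 3 rises and 4 falls after CD69 activation and 2 rises and 4 falls in CD69-/- cells. The largest of these changes was that of Slc3a1, a heavy chain of cystine and dibasic amino acid transport, which rose by 0.67 ± 0.06 after CD69 activation (adjusted p = 2.63e-05).

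Genes of glutathione synthesis and targets of NRF2, the oxidative stress factor that also drives Slc7a11, numbered 11, all measured. After CD69 activation 3 rose and 1 fell, and in CD69-/- cells 3 rose and 1 fell, with medians of 0.01 and 0.09. Hmox1, the haem oxygenase that macrophages express strongly, read 9.54, 9.46 and 9.47 in the wild-type arrays, 9.12, 8.92 and 9.05 in the CD69-/- arrays and 9.98, 9.96 and 9.90 in the CD69-activated arrays. The groups did not overlap, with CD69-/- cells lowest as for Slc7a11. Hmox1 changed by -0.46 ± 0.05 in CD69-/- cells (adjusted p = 0.000107) and 0.46 ± 0.05 after CD69 activation (adjusted p = 0.000106).

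**Figure D4:**
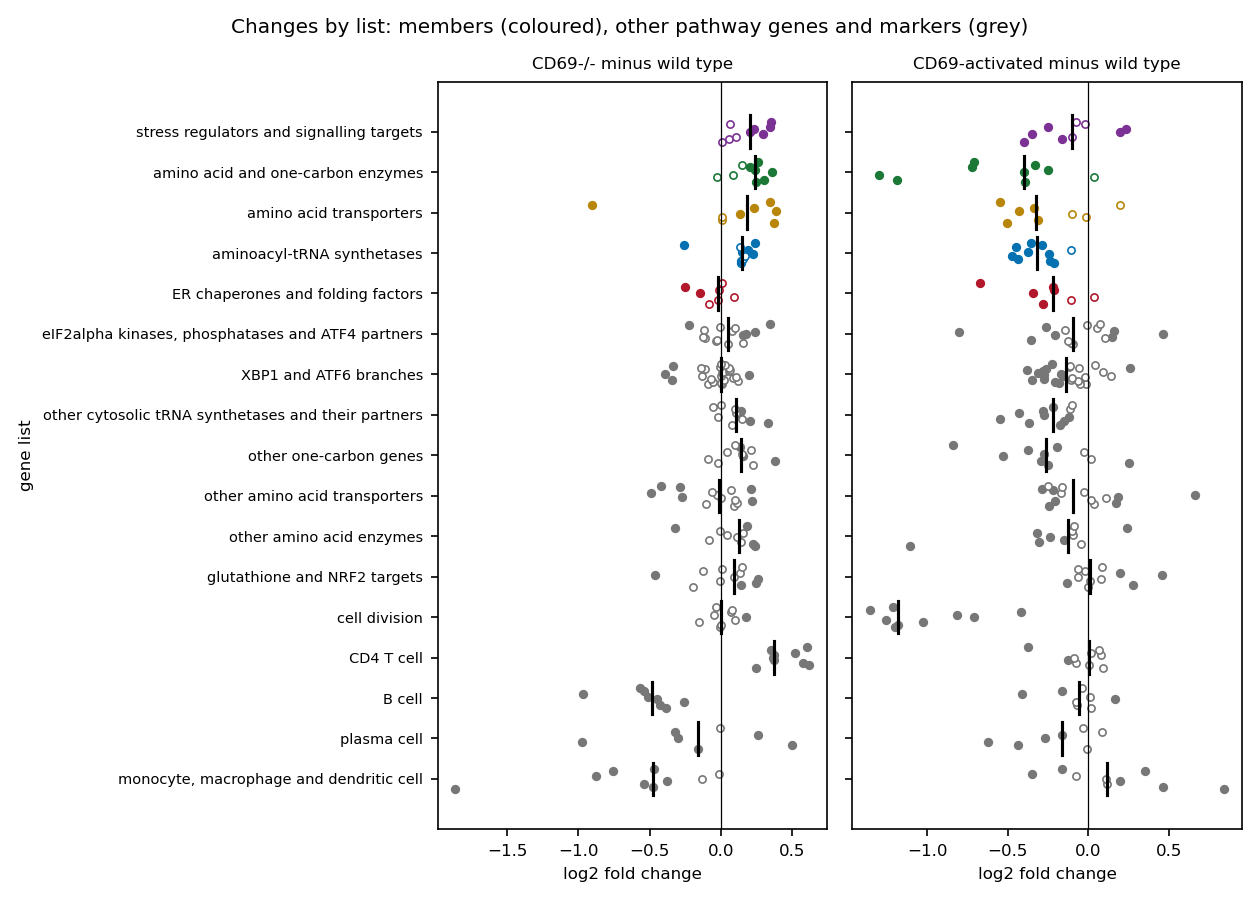
Log2 fold change of each gene by list, for CD69-/- minus wild type and CD69-activated minus wild type; filled points passed an adjusted p of 0.05, open points did not, and the bar is the list's median. The response genes are coloured by role, and the grey lists below are other pathway genes, cell division genes and cell type markers. Cell division genes lie farthest left after CD69 activation (median -1.18). T cell markers, labelled CD4 T cell though CD8 T cells express all but Cd4, lie right of 0 in CD69-/- cells (median 0.37).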

How the data were processed

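Total RNA of 9 samples was hybridised to 1-colour Affymetrix arrays, and the deposited values are log2 expression values. Per the submitters' processing notes, the authors made them with RMA (oligo, R 2.12.1). The RMA method shrinks large fold changes, and there is no detection call. Of 35556 probe sets, 21789 had 1 gene symbol in the platform annotation, 1621 several and 12146 none, and 21698 were matched by gene ID to RefSeq names. The brightest probe set stood for each of 19938 genes. Values were fitted as deposited, with no filter, with limma 3.58.1 in R 4.3.3 (lmFit with 3 group means over 9 arrays, eBayes, 6 residual and 4.78 prior degrees of freedom). Two-sided tests were used. A gene was called at an adjusted p below 0.05, the adjustment being that of Benjamini and Hochberg over the 19938 genes. The procedure was tested on simulated data. Genes were shown in every array where a called change reached 0.5 (log2), as were Atf4, Ddit3, Trib3, Atf3, Hspa5 and Slc7a11. Other pathway genes were named at the same size, and the kinases, Xbp1, Ern1, Atf6, Cebpb, Ppp1r15a and Myc in any case. Ddit4, Phgdh, Wars and the other genes below that size are named to account for the list. All 18 alternatives concerned normalization, probe sets, filters, the fit and arrays left out. The genes and lists were chosen with earlier results of these data known. Python 3.11.15 with matplotlib 3.10.9 drew the figures.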

Additional observations from a re-analysis of the deposited data

How the results depend on the processing

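No gene of the list reversed its direction of call under any of the 18 alternatives. Calls kept under every alternative were 19 of 26 in CD69-/- minus wild type and 28 of 33 in CD69-activated minus wild type. In CD69-activated minus CD69-/- they were 33 of 34. Other genes gained a call under some alternatives. After CD69 activation these included Slc7a11 (under 6 of 18) and Slc3a2 and Sars (under 2 each). In CD69-/- cells they included Lars (under 5) and Iars (under 2). Centring each array on its median over all probe sets, added after the data were seen, left 0 genes of the list called higher after CD69 activation, where Ddit3 and Ddit4 had been called, while 34 were called lower. Over all genes that centring changed the calls by over 1.5-fold in number, to 886 lower in CD69-/- cells (from 1351), to 764 higher (from 2015) and 4741 lower (from 2727) after CD69 activation, and to 1354 higher (from 4314) and 7990 lower (from 4187) between these groups. Without wild-type replicate 3, 1092 of all genes were called higher in CD69-/- cells (from 1667). Averaging the probe sets of a gene gave 2 genes called higher in CD69-activated than in CD69-/- cells, with Pdia4 added, and ended the call of Pdia4 after CD69 activation (adjusted p = 0.358). With arrays left out in turn, 16 to 23 genes were called higher and 3 to 4 lower in CD69-/- cells, 2 to 3 higher and 30 to 32 lower after CD69 activation, and 32 to 33 lower between these groups. Same-numbered arrays had correlations of deviations from -0.24 to 0.14, and differently numbered arrays from -0.14 to 0.20. Whether the cultures were paired cannot be read from these values. The replicate block gave 18 higher and 4 lower, 2 higher and 31 lower, and 1 higher and 33 lower in the 3 comparisons. With 3 arrays a group and no detection call, small changes and dim genes are measured with least certainty.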
